A study of Mus musculus with 6 samples.

Results

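The genes described here encode the transforming growth factor beta (TGF-beta), bone morphogenetic protein (BMP) and activin pathway: 12 ligands or ligand subunits, 12 receptors and co-receptors, 8 Smads, 6 inhibitors, 4 latent TGF-beta binding proteins and 4 Id target genes. They were taken by symbol from the deposited tables, and all 46 were found among the 20637 listed genes. RNA was measured by poly(A) RNA-seq of the whole uterus of female mice on postnatal day 21. There were 3 libraries from Nat10 f/f mice, whose Nat10 gene is floxed (called controls here), and 3 from Nat10 d/d mice, in which Nat10 is deleted. Nat10 encodes an acetyltransferase that acetylates cytidine in RNA. The Cre line, the cells it acts in and the excised exons are not given in the sources used here, nor is it said whether each library came from 1 animal, so p-values measure only the spread between these libraries.

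Ligands of this family are secreted dimers that bring together type I and type II serine/threonine kinase receptors on the target cell. The type I receptor phosphorylates receptor Smads, Smad2 and Smad3 for TGF-beta and activin and Smad1, Smad5 and Smad9 for BMP, which pair with Smad4 and enter the nucleus. Id genes are classical targets of the BMP branch. In the mouse uterus the pathway is known for its roles in the differentiation of stroma and smooth muscle and, later, in decidualization.

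Values are FPKM as deposited, that is, fragments scaled by transcript length and by the mapped fragments of the library, and are therefore comparable between genes per unit length. Nat10 itself had 13.2, 16.4 and 9.95 FPKM in controls and 5.57, 5.23 and 5.53 FPKM in deleted uteri, lower in all 3 libraries labelled deleted (log2 change -1.11, SE 0.17; limma p 0.000265, adjusted p 0.669). Relative sequencing depth, read from the lowest values, differed by at most 1.262 times between libraries, and absolute depth is unknown. Nat10-deleted replicate 2 stood apart on the first principal component of all tested genes, with a score of 40.2 against -25.1 to 4.6 in the other libraries, and its 8 summed proliferation markers were at 159 FPKM against 7.85 to 63.6 in the others. Markers of epithelium, stroma, smooth muscle and endothelium were present in all libraries. Among ovary markers, Fshr, Cyp19a1 and Zp3 were listed at 0 in all 6.

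Of the 46 genes, 45 had at least 1 FPKM in at least 3 libraries and were tested between groups with limma on log2(FPKM + 1), where a log2 change is the deleted mean minus the control mean. No member had an adjusted p under 0.05, and neither did any of the 12640 genes tested (0%, limma with Benjamini-Hochberg adjustment). At an unadjusted p under 0.05 there were 9 members (8 lower and 1 higher in deleted uteri), or 20% of those tested, where the share over all tested genes was 4.98% (2.3% lower and 2.68% higher). The 8 lower members became 3 without control replicate 3 and 3 without deleted replicate 1, settings in which 353 and 352 of all tested genes passed, against 630 with all libraries. In 13 members the 3 deleted libraries lay entirely on one side of the 3 controls, 10 lower and 3 higher, or 28.9% against 10.7% of all tested genes (4.6% lower and 6.12% higher). The lower members were Tgfb2, Tgfb3, Bmp6, Gdf10, Tgfbr2, Eng, Fst, Ltbp3, Ltbp4 and Id3, and the higher ones were Bmp5, Bambi and Id1. After quantile normalization, median centring and upper-quartile scaling the deleted libraries lay above controls in 1 member each time, Bmp5, and no longer in Bambi or Id1, where 4.26%, 4.39% and 3.86% of all tested genes were higher. They lay below controls in 10, 13 and 13 members, against 6.55%, 6.43% and 7.19% of all tested genes. Acvrl1 and Fstl1 were added to the lower members by all 3 scalings and Ltbp2 by the last 2, while Ltbp4 and Id3 were lost under quantile normalization. Array quality weights were 3.74, 0.2242 and 0.4511 for deleted replicates 1, 2 and 3, so that the deleted means rested mostly on replicate 1, and 1.151 to 1.918 for controls. With these weights 5 members passed an adjusted p of 0.05 (Bmp5 higher, and Tgfb3, Gdf10, Eng and Ltbp4 lower), against 2.5% of all tested genes (1.34% lower and 1.16% higher). At an unadjusted p under 0.05 the weights gave 11 lower and 6 higher members, where 13.4% of all tested genes were lower and 16.1% higher (29.5% in all).

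**Figure D1:**
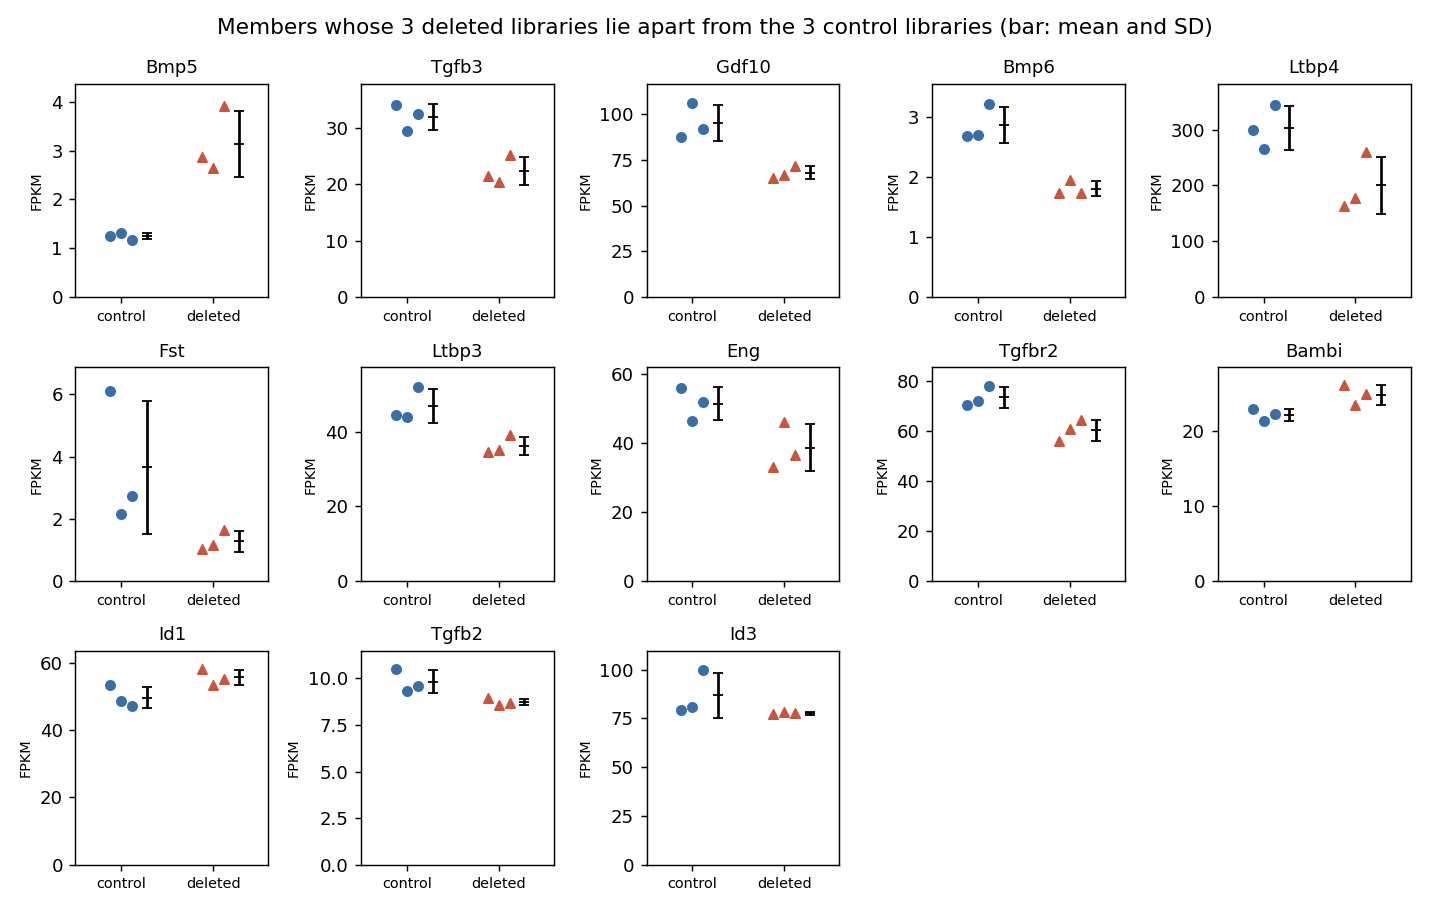
FPKM of the 13 members whose groups did not overlap, ordered by limma p, with 3 control libraries as circles, 3 Nat10-deleted libraries as triangles and bars for the mean and SD of each group. Bmp5 lies higher in all deleted libraries (2.64 to 3.91 against 1.18 to 1.31 FPKM), while Tgfb3, Gdf10, Bmp6 and Ltbp4 lie lower.

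Among the ligands, the largest difference was in Bmp5, which encodes a BMP of the same subgroup as Bmp6 and Bmp7. Bmp5 (ENSMUSG00000032179; chr9:75775364-75900310, plus strand, GRCm38) was at 1.25, 1.31 and 1.18 FPKM in control replicates 1, 2 and 3 and at 2.86, 2.64 and 3.91 FPKM in deleted replicates 1, 2 and 3. The lowest deleted library was thus above the highest control, and the deleted mean of 3.14 ± 0.681 FPKM (SD, n = 3) was 251% of the control mean of 1.25 ± 0.0626 (SD, n = 3). Its log2 change was 0.87 (SE 0.17; limma p 0.00102, adjusted p 0.778), and leaving out any 1 library kept it between 0.74 and 0.95. An annotated antisense gene overlaps the locus, and the strand setting of the authors' counting is not given in the sources used here.

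Bmp6 (chr13:38345107-38500302, plus strand) differed in the other direction. Control libraries had 2.68, 2.71 and 3.22 FPKM and deleted libraries 1.73, 1.96 and 1.74 FPKM, without overlap. Its log2 change was -0.46 (SE 0.14; limma p 0.013, adjusted p 0.922). Bmp6 overlaps Txndc5 on the opposite strand by 224 bases, and Txndc5 had 106 to 126 FPKM in controls and 88.1 to 148 FPKM in deleted uteri. With the strand setting not given, the part of Txndc5 reads in the Bmp6 values and in ratios to Bmp6 cannot be told apart. In the deposited values, within that limit, Bmp6 exceeded Bmp5 in all 3 controls, where the Bmp5 to Bmp6 ratio was 0.468, 0.483 and 0.368, and Bmp5 exceeded Bmp6 in all 3 deleted uteri, at ratios of 1.65, 1.34 and 2.25. This ratio within a library is not altered by scaling a library with a single factor. It was chosen after the values were seen. Its two-sided p in an exact permutation of libraries was 0.1, and 3 libraries a group cannot give less. Because Bmp5 was higher and Bmp6 lower in every deleted library, the ratio had to separate the groups. This p was thus fixed by the values of the 2 genes and adds no support to them. Bmp7, the most abundant BMP of the list in controls, was at 15, 17.5 and 16.2 FPKM in controls and 15.2, 11.9 and 18 FPKM in deleted uteri, with overlapping groups.

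Gdf10, a secreted ligand related to Bmp3, was the most abundant ligand. Gdf10 (ENSMUSG00000021943; chr14:33923587-33937983, plus strand) had 87.4, 106 and 91.9 FPKM in controls and 65.4, 67 and 71.9 FPKM in deleted uteri. All deleted values were below all control values, the deleted mean was 71.6% of the control mean, and the log2 change was -0.47 (SE 0.11; limma p 0.00381, adjusted p 0.922). The 250 bases before the RefSeq transcription start of Bmp5 and Gdf10 are printed because these were the ligands with the largest log2 change and the highest level. They differ in composition, with 42.8% G or C and 4 CpG dinucleotides upstream of Bmp5 and 78.8% and 35 upstream of Gdf10. Capitals mark CAGAC or its reverse complement GTCTG, the core of the Smad binding element.
Bmp5 (chr9:75775115-75775364, plus strand): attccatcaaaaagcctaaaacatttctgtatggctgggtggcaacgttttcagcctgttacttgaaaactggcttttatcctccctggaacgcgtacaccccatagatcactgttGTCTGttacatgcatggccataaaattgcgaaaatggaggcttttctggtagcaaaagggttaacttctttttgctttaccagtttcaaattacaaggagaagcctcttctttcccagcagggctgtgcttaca
Gdf10 (chr14:33923337-33923586, plus strand): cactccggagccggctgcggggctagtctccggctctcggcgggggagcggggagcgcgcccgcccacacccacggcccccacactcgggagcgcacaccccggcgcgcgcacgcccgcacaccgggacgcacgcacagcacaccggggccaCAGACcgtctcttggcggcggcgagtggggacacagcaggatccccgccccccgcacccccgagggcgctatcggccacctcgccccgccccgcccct

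The 3 TGF-beta ligand genes differed from each other in level and in the size of the difference. Tgfb3 (ENSMUSG00000021253; chr12:86056745-86079041, minus strand) was the most abundant, at 34.1, 29.5 and 32.5 FPKM in controls and 21.5, 20.5 and 25.2 FPKM in deleted uteri. The groups did not overlap, the deleted mean was 70% of the control mean, and the log2 change was -0.50 (SE 0.12; limma p 0.00361, adjusted p 0.922). Tgfb3 overlaps Ttll5 on the opposite strand, and Ttll5 had 4.37 to 5.84 FPKM in controls and 4.04 to 5.03 FPKM in deleted uteri, with a log2 change of -0.12.

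Tgfb2 was at 10.5, 9.34 and 9.6 FPKM in controls and 8.92, 8.58 and 8.67 FPKM in deleted uteri. Its groups did not overlap, but the log2 change of -0.15 (SE 0.10; limma p 0.181, adjusted p 0.924) was small. Tgfb1 was at 12.3, 11.4 and 12.2 FPKM in controls and 11.1, 12.2 and 8.66 FPKM in deleted uteri, so that deleted replicate 2 lay within the controls and the other deleted libraries below them.

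Bmp2 and Bmp4, which encode a closely related pair of BMPs, were lowest of all 6 libraries in deleted replicate 2. For Bmp2, controls had 8.37, 7.79 and 8.28 FPKM and deleted uteri 9.65, 4.99 and 11.9 FPKM. For Bmp4, controls had 14.5, 10.3 and 13.4 FPKM and deleted uteri 13.3, 5.32 and 14.7 FPKM. In both genes deleted replicate 2 lay below every control, whereas deleted replicate 3 lay above every control. The standard errors (0.26 and 0.34 log2 units) exceeded the log2 changes of 0.03 and -0.27. Without deleted replicate 2 the changes were 0.36 for Bmp2 and 0.14 for Bmp4, and without deleted replicate 3 they were -0.20 and -0.52.

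The activin and inhibin subunit genes were low. Inhba and Inhbb encode the beta subunits that form activins, and Inha encodes the alpha subunit that turns the dimer into inhibin. Inhba was between 1.17 and 1.82 FPKM and Inhbb between 2.1 and 3.33 FPKM over all 6 libraries, with overlapping groups. Inha was at 5, 5.58 and 7.04 FPKM in controls and 8.77, 5.06 and 9.24 FPKM in deleted uteri, where replicates 1 and 3 exceeded all controls and replicate 2 did not. The 8 ovary markers, which include Inha, summed to 34.4 to 36.1 FPKM in controls and 23.7 to 34.3 FPKM in deleted uteri, of which Foxl2 alone gave 26.7 to 28.9 FPKM and 18.1 to 24 FPKM. Apart from Foxl2 and Inha, no ovary marker exceeded 1.58 FPKM, and their part in the Inha values was not tested.

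**Figure D2:**
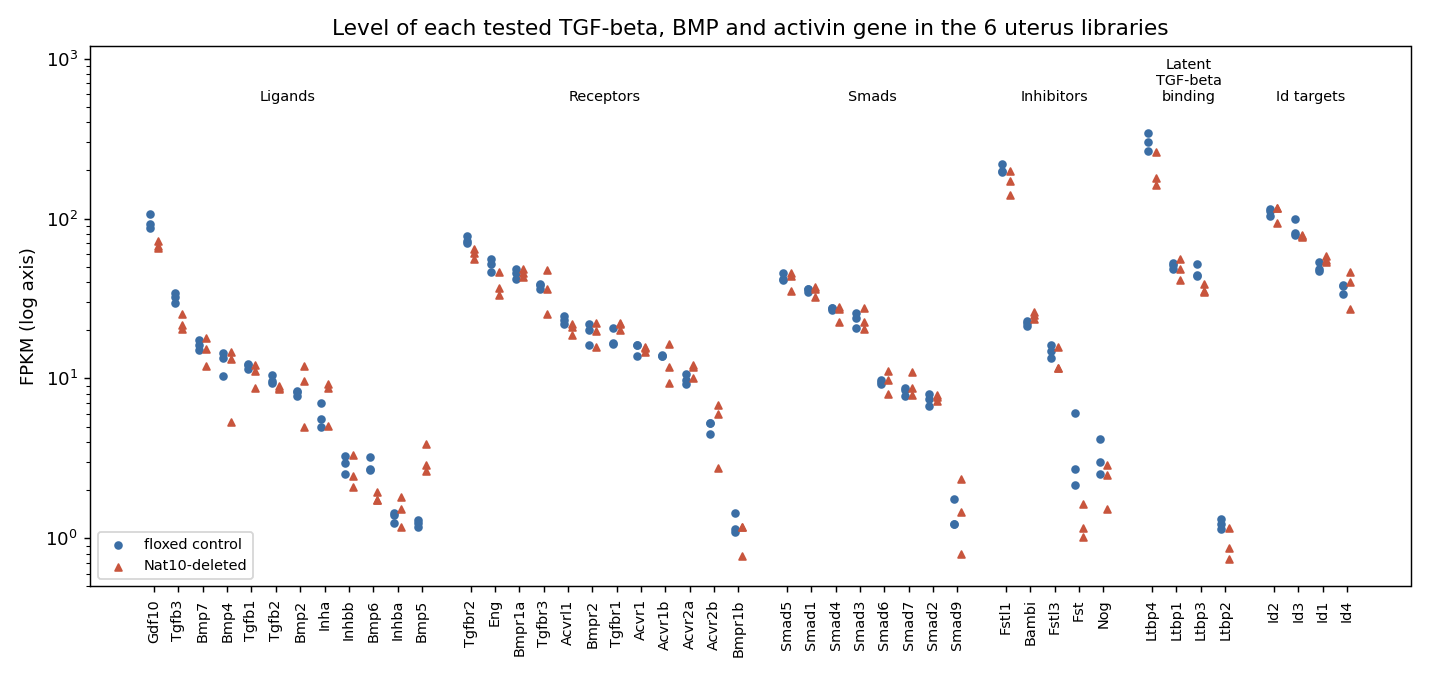
FPKM on a log axis for the 45 tested members, grouped by role and ordered by control mean, with 3 control libraries (circles) and 3 Nat10-deleted libraries (triangles). Ltbp4 and Fstl1 have the highest levels, and Bmp5 has the lowest control mean of the ligands (1.25 FPKM, against 3.14 FPKM in deleted uteri).

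Among receptors, 2 of 12 did not overlap between groups, both lower in deleted uteri (16.7%, against 10.7% of all tested genes in either direction and 4.6% lower). Tgfbr2 encodes the type II TGF-beta receptor and was the most abundant receptor. Tgfbr2 (ENSMUSG00000032440; chr9:116084293-116175360, minus strand) had 70.2, 71.9 and 77.9 FPKM in controls and 55.9, 60.6 and 64.2 FPKM in deleted uteri. Every deleted library was below every control, with a deleted mean at 82.1% of the control mean and a log2 change of -0.28 (SE 0.11; limma p 0.0319, adjusted p 0.922). Its type I partner Tgfbr1 was at 16.4, 20.8 and 16.6 FPKM in controls and 21.8, 20.2 and 22.1 FPKM in deleted uteri, overlapping at 1 library of each group.

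Eng encodes endoglin, a TGF-beta and BMP co-receptor of endothelial cells. Eng (ENSMUSG00000026814; chr2:32646595-32682669, plus strand) was at 55.9, 46.5 and 51.8 FPKM in controls and 33.1, 46.2 and 36.6 FPKM in deleted uteri. Deleted replicate 2 lay just under the lowest control and the others well below it. The log2 change was -0.41 (SE 0.15; limma p 0.0252, adjusted p 0.922), -0.31 without deleted replicate 1 and -0.55 without deleted replicate 2. Eng overlaps Fpgs on the opposite strand, which was at 16.9 to 22.5 FPKM in controls and 15.7 to 18.7 FPKM in deleted uteri.

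Acvrl1, the type I receptor that works with endoglin in endothelium, was at 23.3, 21.8 and 24.6 FPKM in controls and 20.9, 18.7 and 21.9 FPKM in deleted uteri. Its groups overlapped at the edge, and after each of the 3 scalings they were apart and lower in deleted uteri. Of 8 endothelial markers, all had a mean log2 change below 0, as had 5486 of the 12640 tested genes, and 3 did not overlap between groups (37.5%, against 10.7% of all tested genes). Their summed level was 330 to 375 FPKM in controls and 289 to 368 FPKM in deleted uteri, and none was at 0 throughout. Their part in the values of Eng and Acvrl1 was not tested. In whole tissue, fewer cells of a type and less RNA per cell cannot be told apart.

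The upstream windows of Tgfbr2 and Eng are printed because these were the receptors with non-overlapping groups. Both hold the CAGAC core (in capitals on either strand), once upstream of Tgfbr2 and at 2 places upstream of Eng.
Tgfbr2 (chr9:116175364-116175613, minus strand): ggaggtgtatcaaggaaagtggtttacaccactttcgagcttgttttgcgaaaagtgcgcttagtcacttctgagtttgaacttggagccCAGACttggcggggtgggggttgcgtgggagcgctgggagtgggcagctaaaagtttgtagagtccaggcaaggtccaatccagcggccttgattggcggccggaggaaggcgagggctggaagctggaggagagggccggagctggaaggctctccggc
Eng (chr2:32646345-32646594, plus strand): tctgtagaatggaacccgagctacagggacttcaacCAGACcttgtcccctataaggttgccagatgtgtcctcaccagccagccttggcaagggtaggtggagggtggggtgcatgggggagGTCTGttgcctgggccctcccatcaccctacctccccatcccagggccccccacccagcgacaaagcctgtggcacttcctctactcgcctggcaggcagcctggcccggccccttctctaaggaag
This core is frequent: it occurs on either strand in 47.1% of the 34 members found in the RefSeq promoter table (GRCm38.p6) and in 42.2% of the 27025 windows of this length. The palindrome GGCGCC, bound by BMP Smads, was in 7 of the 34 members' windows (20.6%) and in 9.57% of all windows. Those 7 were Bmpr1a, Bmpr2, Grem1, Id2, Id4, Smad9 and Tgfbr1, and none of them had groups apart. This motif holds only G and C, so its share depends on the composition of the windows, which was not matched. The palindrome GTCTAGAC was in 0 of 34 and in 0.174% of all windows. These letters were searched on both strands, and no motif contains another. A match describes the letters in the window and not a bound site.

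The BMP and activin receptors had overlapping groups. Bmpr1a, the most abundant BMP type I receptor, was at 45.4, 48.6 and 41.7 FPKM in controls and 48.5, 43.2 and 45.8 FPKM in deleted uteri (log2 change 0.02, SE 0.11). Bmpr1b, the other BMP-specific type I receptor, was near the lower limit of the tested range, at 0.781 to 1.45 FPKM. Bmpr2 had means of 19.4 and 19.3 FPKM and Acvr1 of 15.4 and 15.3 FPKM in control and deleted uteri, with SDs of 0.605 to 3.27 FPKM (n = 3).

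Among the activin receptors, the type I receptor gene Acvr1b showed a spread that differed between groups. Its controls were at 13.9, 13.9 and 14.1 FPKM and its deleted libraries at 11.8, 9.34 and 16.5 FPKM. The type II receptor Acvr2b was at 5.26, 4.49 and 5.24 FPKM in controls and 5.95, 2.74 and 6.78 FPKM in deleted uteri, and Acvr2a had means of 9.86 ± 0.717 and 11.4 ± 1.12 FPKM (SD, n = 3). Tgfbr3, which encodes the co-receptor betaglycan, had 39.1, 36.2 and 38.4 FPKM in controls and 36, 25.3 and 47.5 FPKM in deleted uteri, again lowest in deleted replicate 2 and highest in deleted replicate 3.

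None of the 8 Smads passed an unadjusted limma p of 0.05 and none had groups apart, where the shares over all tested genes were 4.98% and 10.7%, so that with 8 genes a count of 0 is near the background. The median log2 change of the Smads was 0.00, and that of all tested genes was 0.03. The BMP-branch Smad5 and Smad1 were the most abundant. Smad5 was at 42.1, 45.5 and 41.3 FPKM in controls and 44, 35.4 and 45.6 FPKM in deleted uteri (log2 change -0.05, SE 0.13), and Smad1 at 34.7, 36.4 and 36.5 FPKM and 36.1, 32.3 and 37.2 FPKM (log2 change -0.03, SE 0.10). The common partner Smad4 had 27.3 ± 0.558 FPKM in controls and 25.9 ± 2.86 FPKM in deleted uteri (SD, n = 3). Between the Smads of the TGF-beta and activin branch, Smad3 (23.4 and 23.5 FPKM in control and deleted uteri) was more abundant than Smad2 (7.37 and 7.6 FPKM). Smad9, the third BMP Smad, was low, at 0.8 to 2.36 FPKM. The inhibitory Smad6 had means of 9.51 and 9.68 FPKM and Smad7 of 8.29 and 9.2 FPKM in control and deleted uteri.

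Although Smad means were close, the Smads spread within the deleted group. In 6 of 8 Smads (Smad1, Smad3, Smad4, Smad5, Smad6 and Smad9) deleted replicate 2 was the lowest and deleted replicate 3 the highest of the 6 libraries. The same pair of extremes was seen in 15 of 45 tested members (33.3%), among them Bmp2, Bmp4, Bmp7, Tgfbr3, Acvr1b and Acvr2b, and in 12.3% of all tested genes. Deleted replicate 2 was the lowest library in 23 members (51.1%; 25.7% of all tested genes) and the highest in 1, Inhba (2.22%; 30.1% of all tested genes). Deleted replicate 3 was the highest in 19 members (42.2%; 22.1% of all tested genes). Per member, the deleted SD divided by the control SD had a median of 1.85 over the 45 members and of 1.73 over all tested genes. The proliferation markers were highest in deleted replicate 2 and lowest in deleted replicate 3, and their part in this spread was not tested.

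**Figure D3:**
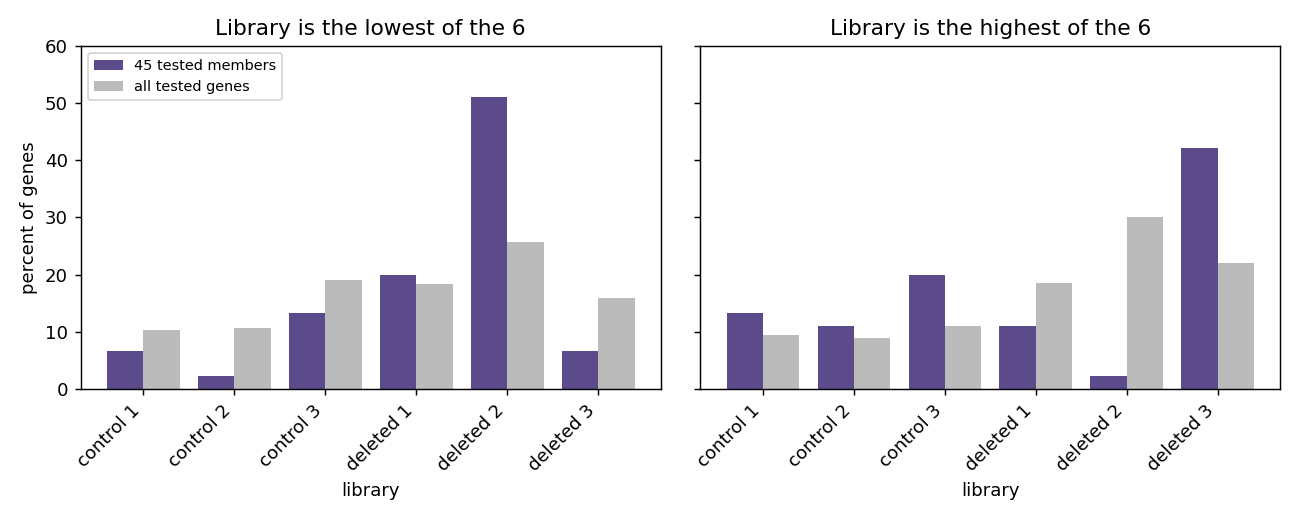
Percent of genes for which each library is the lowest (left) or highest (right) of the 6, for the 45 tested members and for all 12640 tested genes. Members are lowest in Nat10-deleted replicate 2 (51.1%) and highest in Nat10-deleted replicate 3 (42.2%) more often than in any other library.

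Without deleted replicate 2, the deleted libraries lay above controls in 11 members (17.4% of all tested genes) and below them in 12 (14.4%). The higher members then included Bmp2, Inha, Tgfbr1, Acvr2a, Acvr2b, Smad6, Id2 and Id4 in addition to Bmp5, Bambi and Id1. At an unadjusted limma p under 0.05 there were then 9 lower and 4 higher members, against 6.57% and 7.09% of all tested genes (13.7% in all). At an adjusted p under 0.05 there was no member, and 0.0949% of all tested genes passed (0.0633% lower and 0.0316% higher). The balance of mean changes also moved, from 14 higher and 31 lower with all libraries to 24 higher and 21 lower without this library. Of all 12640 tested genes, 7154 were higher and 5486 lower with all libraries. The median log2 change of all tested genes was 0.03 with all libraries and 0.02 without this library.

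Among the inhibitors, Fst and Bambi had groups apart. Fst encodes follistatin, which binds and neutralizes activins. Fst (ENSMUSG00000021765; chr13:114452290-114458951, minus strand) was at 6.1, 2.15 and 2.73 FPKM in controls and 1.02, 1.16 and 1.64 FPKM in deleted uteri. All deleted values were below all controls, but control replicate 1 was far above the other controls. The deleted mean was 34.7% of the control mean, with a log2 change of -0.95 (SE 0.30; limma p 0.0153, adjusted p 0.922) that was -0.60 without control replicate 1. An annotated antisense gene overlaps Fst.

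Bambi encodes a receptor-like protein without a kinase domain that dampens signalling. It was at 22.9, 21.3 and 22.3 FPKM in controls and 26.1, 23.5 and 24.9 FPKM in deleted uteri, a log2 change of 0.16 (SE 0.10; limma p 0.156, adjusted p 0.922). This separation was lost after each of the 3 scalings of libraries.

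Fstl1, a secreted glycoprotein related to follistatin, was the most abundant inhibitor, at 218, 197 and 194 FPKM in controls and 172, 197 and 140 FPKM in deleted uteri. Deleted replicate 2 lay within the controls and the others below them, and after each scaling all 3 lay below (log2 change -0.27, SE 0.15; limma p 0.107, adjusted p 0.922). The Fstl1 change was -0.14 without deleted replicate 3 and -0.39 without deleted replicate 2. Fstl3, an activin-binding protein like follistatin, had means of 14.8 ± 1.37 and 13 ± 2.36 FPKM (SD, n = 3). Nog encodes the BMP antagonist noggin and was at 3.01, 4.21 and 2.52 FPKM in controls and 2.88, 1.53 and 2.48 FPKM in deleted uteri. Grem1, another BMP antagonist, was listed at 0 in all controls and at no more than 0.208 FPKM in deleted uteri, and was not tested.

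The latent TGF-beta binding proteins hold latent TGF-beta in the extracellular matrix (Ltbp2 belongs to the family without binding it). All 4 had a log2 change below 0, as had 5486 of the 12640 tested genes. Their median was -0.29, against 0.03 over all tested genes. Ltbp4, which also takes part in elastic fibre assembly, was the most abundant of the 46 genes. Ltbp4 (ENSMUSG00000040488; chr7:27305136-27337692, minus strand) was at 300, 265 and 344 FPKM in controls and 163, 178 and 259 FPKM in deleted uteri. Deleted replicate 3 lay just under the lowest control and the other deleted libraries far below. The deleted mean was 66.1% of the control mean, with a log2 change of -0.62 (SE 0.19; limma p 0.0143, adjusted p 0.922), and -0.48 to -0.82 when 1 library was left out. After quantile normalization the Ltbp4 groups overlapped.

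Ltbp3 (chr19:5740904-5758532, plus strand) was at 44.4, 43.9 and 52 FPKM in controls and 34.5, 35.1 and 39 FPKM in deleted uteri, without overlap and with a log2 change of -0.36 (SE 0.11; limma p 0.0159, adjusted p 0.922). Ltbp1 was at 48.3, 51.3 and 52.5 FPKM in controls and 48.3, 41.2 and 56 FPKM in deleted uteri (log2 change -0.07, SE 0.13), with overlapping groups. Ltbp2 was near the lower limit of the tested range, at 1.14 to 1.33 FPKM in controls and 0.742 to 1.16 FPKM in deleted uteri.

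Markers of stroma, which makes much of the uterine matrix, also had lower means in deleted uteri. All 9 had a mean log2 change below 0, as had 5486 of the 12640 tested genes, while 7154 were above 0. Of these 9 markers 2 had groups apart (22.2%, against 10.7% of all tested genes), and none was at 0 throughout. Their summed level was 2812 to 3157 FPKM in controls and 2572 to 2919 FPKM in deleted uteri, with overlapping groups. The highest deleted value was in replicate 2, and deleted replicates 1 and 3 (2585 and 2572 FPKM) lay below every control. Without deleted replicate 2 the median log2 change of the stroma markers was -0.40, against -0.24 with all libraries. At an unadjusted limma p under 0.05 there were then 6 of 9 (13.7% of all tested genes), against 2 with all libraries (4.98%). The 7 smooth muscle markers had a median log2 change of -0.01 and a summed level of 3830 to 4389 FPKM in controls and 3614 to 4488 FPKM in deleted uteri. Of the 8 epithelial markers 6 had a log2 change above 0 and 3 had groups apart, all higher (37.5%, against 10.7% of all tested genes and 6.12% higher), with summed levels of 826 to 899 FPKM in controls and 799 to 1083 FPKM in deleted uteri. Of 5 mesothelium markers 4 had a log2 change below 0 and 2, Msln and Lrrn4, had groups apart and lower (40%, against 10.7% of all tested genes), with summed levels of 91.3 to 115 FPKM in controls and 93 to 101 FPKM in deleted uteri. All 5 blood markers had a log2 change below 0 with overlapping groups, and summed to 851 to 5581 FPKM in controls, highest in control replicate 1, and 709 to 1723 FPKM in deleted uteri. The part of these markers in the values of Ltbp3, Ltbp4, Gdf10, Tgfb3, Bmp5 and Fst was not tested.

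**Figure D4:**
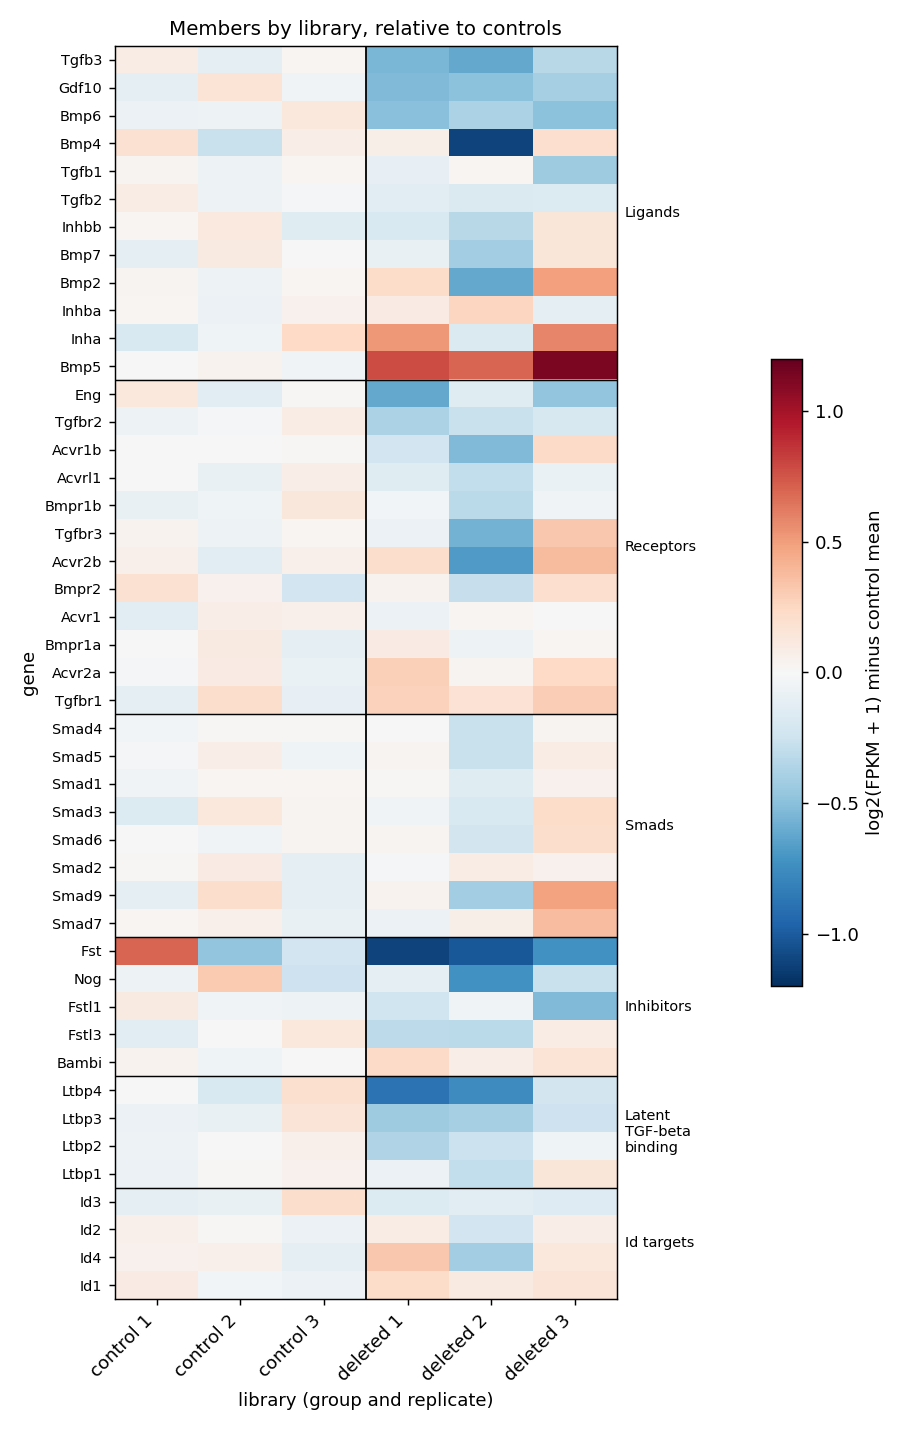
Difference of log2(FPKM + 1) from the control mean for the 45 tested members (rows, by role) in the 6 libraries (columns); blue is lower and red higher than the control mean. Tgfb3, Gdf10, Bmp6, Fst, Ltbp3 and Ltbp4 are blue and Bmp5 red in all deleted libraries, while Bmp2, Bmp4, Acvr2b and Tgfbr3 are blue in deleted replicate 2 and red in deleted replicate 3.

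The Id genes, which encode inhibitors of basic helix-loop-helix transcription factors, were all abundant and differed little. Id1 was at 53.3, 48.6 and 47.1 FPKM in controls and 58.1, 53.5 and 55.3 FPKM in deleted uteri, and Id3 at 79.3, 81 and 100 FPKM and 77, 78.5 and 77.5 FPKM. Both sets of groups were apart by a narrow margin, Id1 higher (log2 change 0.16, SE 0.10; limma p 0.159) and Id3 lower (-0.15, SE 0.12; limma p 0.248) in deleted uteri, with adjusted p of 0.922 and 0.928. The Id1 groups overlapped after each scaling, and the Id3 groups after quantile normalization. Without control replicate 3, the highest control, the Id3 change was -0.05. Id2, the most abundant, was at 114, 111 and 104 FPKM in controls and 117, 93.6 and 116 FPKM in deleted uteri (log2 change -0.02, SE 0.12), and Id4 at 38.1, 38.2 and 33.8 FPKM and 46.1, 27.2 and 40.2 FPKM. Deleted replicate 2 was the lowest library for both Id2 and Id4.

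Other genes of the pathway were read from a separate list of further ligands, receptors, activators, inhibitors, Smad regulators and targets. Of 70 found in the deposited tables, 50 were tested, and 0 had an adjusted p under 0.05 in limma. At an unadjusted p under 0.05 there were 4, all lower in deleted uteri (8% of 50, where 4.98% of all tested genes passed, 2.3% lower). This count was 1 without control replicate 3, 2 without control replicate 2 and 2 without deleted replicate 1, where 353, 472 and 352 of the 12640 tested genes passed. It was 8 without deleted replicate 3 and 10 without deleted replicate 2, where 1403 and 1726 of all tested genes passed, against 630 with all libraries. Groups did not overlap in 7 (14%; 10.7% of all tested genes), 6 lower and 1 higher.

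The clearest of these was Htra1, a secreted protease of the matrix, at 85.1, 76.2 and 99.2 FPKM in controls and 57.6, 57.4 and 60 FPKM in deleted uteri (log2 change -0.56, SE 0.12; limma p 0.00226, adjusted p 0.838). Lefty1, an antagonist of nodal signalling, was at 4.38, 4.86 and 4.63 FPKM in controls and 2.37, 3.48 and 3.61 FPKM in deleted uteri (log2 change -0.45, SE 0.16; limma p 0.0232, adjusted p 0.922). In both genes every deleted library was below every control.

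Groups also did not overlap for Neo1, a receptor for repulsive guidance molecules (log2 change -0.27), Fbn1, which encodes the microfibril protein fibrillin (-0.33), the BMP modulator Twsg1 (-0.12) and, higher in deleted uteri, the phosphatase gene Ppm1a (0.14). None of the 11 tested further target genes, which included Tgfbi, Msx1 and Hey1, passed an unadjusted limma p of 0.05 or had groups apart, which for 11 genes is near the shares over all tested genes (4.98% and 10.7%).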

How the data were processed

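Poly(A) RNA of whole uterus was sequenced in 6 libraries, 3 Nat10 f/f and 3 Nat10 d/d, grouped by sample title. Per the submitters' processing notes, HISAT2 2.2.1, Cufflinks 2.2.1 and the mm10 build were used; the annotation, filters and strand setting are not given in the sources used here. The deposited values are taken as FPKM made by the authors, because Cufflinks reports that unit and the values are not whole and sum to 500764 to 549263 per library; the headers name no unit. Division by length and depth means that absolute depth is lost and that a few abundant genes can shift the rest.

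Genes with at least 1 FPKM in at least 3 libraries (12640) were compared as log2(FPKM + 1) with limma 3.58.1 in R 4.3.3. The fit had group as the only term and eBayes with trend, two-sided, with Benjamini-Hochberg over all genes and a threshold of 0.05. It was also run on simulated data, with planted changes larger than that of any member and noise independent between genes. That run does not show how smaller changes, or data with an outlying library, are handled. The log scale understates changes of low genes. Python 3.11.15 was used for tables. Gene positions are from GENCODE M21 (GRCm38, the same assembly as mm10), which held 20558 of 20637 identifiers, and upstream sequences from RefSeq (GRCm38.p6), using the most upstream start and leaving out bases after it. Protein sequences were not used here.

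The members and lists were chosen with earlier results of these data known. Full values are given for members whose groups do not overlap, members at an unadjusted p under 0.05 and the 2 most abundant per role. Of the further pathway genes without overlap, Htra1 and Lefty1 have full values, and Neo1, Fbn1, Twsg1 and Ppm1a a log2 change only. Alternatives covered scaling, filter, pseudocount, trend, array weights, a replicate block and leaving out each library. Some items of the pathway lists are not reported here.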

Additional observations from a re-analysis of the deposited data

How the results depend on the processing

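No member passed an adjusted p of 0.05 in limma under any setting except array quality weights (5 members, 316 of all genes and 2 further pathway genes; Nat10 -1.09 log2 units, limma adjusted p 0.0386; Tgfb3 -0.55, Bmp5 0.81, Gdf10 -0.49, Eng -0.60 and Ltbp4 -0.81). Without Nat10-deleted replicate 2, 12 of all genes passed and 0 members (13 at an unadjusted p under 0.05), and without any other library 0 genes passed. Array weights gave 6 higher members (16.1% of all tested genes were higher) and 16 of 50 further pathway genes (29.5% of all tested genes) at an unadjusted p under 0.05. Quantile normalization, median centring and upper-quartile scaling left 1, 1 and 1 member with deleted libraries above controls (4.26%, 4.39% and 3.86% of all tested genes) and 10, 13 and 13 below (6.55%, 6.43% and 7.19%). Among all genes at an unadjusted p under 0.05, these scalings gave 259 higher and 414 lower, 248 and 376, and 229 and 419, against 339 and 291 without scaling.

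Leaving out 1 library gave 3 to 9 lower and 1 to 4 higher members at an unadjusted p under 0.05, where 352 to 1726 of all tested genes passed. It gave 11 to 16 lower and 3 to 11 higher members without overlap (15% to 31.8% of all tested genes in either direction, since fewer libraries separate more easily by construction; the 16 lower members were without deleted replicate 3, where 14.6% of all tested genes were lower). It gave 1 to 10 further pathway genes at an unadjusted p under 0.05. It moved the median of the inhibitors between -0.31 and -0.19 and that of the Id targets between -0.11 and 0.14. Small changes turned sign: Bmpr1a was -0.02, -0.01 and -0.02 under the 3 scalings and -0.04 to 0.07 with 1 library left out, Smad1 was 0.01, Smad5 0.03 and Id2 0.07 with array weights, and leaving out 1 library gave -0.07 to 0.03 for Smad1, -0.12 to 0.06 for Smad5, -0.18 to 0.04 for Ltbp1 and -0.07 to 0.09 for Id2.

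Whether the replicate numbers pair the libraries is not given in the sources used here. The deviations of same-numbered libraries from their group means correlated at -0.34, -0.03 and 0.10 over tested genes. Those of differently numbered libraries correlated at -0.24 to 0.27. Deviations from a mean of 3 libraries depend on each other, so these correlations cannot exclude a pairing. A fit with the replicate number as a block gave 0 genes at an adjusted p under 0.05 and 726 at an unadjusted p under 0.05, with 8 lower and 1 higher members among them. Absolute depth is unknown, so the counting error of levels near 1 FPKM (Bmp5, Inhba, Bmpr1b, Smad9, Ltbp2 and Fst) could not be given.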

Other observations

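Within libraries, the ratio of Id1 to Id3 was 0.672, 0.6 and 0.47 in controls and 0.754, 0.682 and 0.713 in deleted uteri, and that of Bmp5 to Bmp7 was 0.0834, 0.0747 and 0.0732 in controls and 0.188, 0.221 and 0.217 in deleted uteri. Both ratios were chosen after the values were seen, and both separated the groups. Each had an exact permutation p of 0.1, the smallest possible with 3 against 3 libraries. Because Id1 was higher and Id3 lower in every deleted library, their ratio had to separate the groups and adds no support. The ratio of Tgfb3 to Tgfb1 overlapped between groups (2.6 to 2.78 in controls, and 1.93, 1.68 and 2.91 in deleted uteri). Gdf15, a stress-induced member of the wider ligand family that was too low to be tested, was at 0.26, 0.341 and 0.24 FPKM in controls and 0.35, 2.72 and 0.83 FPKM in deleted uteri, highest in deleted replicate 2.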
